A study of Mus musculus with 4 samples.

Results

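The CXC chemokine ligands of mouse bone marrow-derived macrophages (BMDMs) were examined on 4 Agilent whole mouse genome arrays. They were taken by name, as every non-control probe that the array annotation assigns to Cxcl1, Cxcl2, Cxcl3, Cxcl9, Cxcl10, Cxcl11, Cxcl12, Cxcl14, Cxcl16 or Pf4. This gave 10 genes and 14 probes, out of 23657 genes and 31391 probes with a gene symbol. Cxcl9, Cxcl10, Cxcl11 and Cxcl12 had 2 probes each, and the other 6 genes had 1.

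All BMDMs came from 10-week-old C57BL/6J mice, and bone marrow cells were grown for 6 days with L929 supernatant, a source of M-CSF, before 2 days of stimulation. M1 BMDMs were wild type and received IFN-γ at 20 ng/ml with LPS at 100 ng/ml. M2 BMDMs were wild type and received IL-4 at 50 ng/ml. Lamtor1-deficient M2 BMDMs, labelled p18 (2400001E08Rik) -/-, received the same IL-4. Torin1-treated M2 BMDMs were wild type and received the same IL-4 with Torin1, an inhibitor of the kinase mTOR, at 250 nM. In the study's methods the deficient mice are Lamtor1 flox/flox with LysM-Cre, so that Cre acts in myeloid cells. Littermate controls there are Lamtor1 flox/flox. The labels give neither Cre nor the floxed allele for the wild-type mice. Each condition was 1 array, so no test was possible and no p-value is given, and precision is limited by there being only 4 arrays.

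CXC chemokines are small secreted proteins that guide leukocytes through receptors coupled to G proteins. Those with the amino acids ELR before the CXC motif (Cxcl1, Cxcl2 and Cxcl3 among the members) attract neutrophils through Cxcr2. Cxcl9, Cxcl10 and Cxcl11 are induced by interferons and attract activated T cells through Cxcr3. Cxcl12, Cxcl14, Cxcl16 and Pf4 are made without an inflammatory stimulus in many tissues, by stromal cells, epithelium, macrophages and platelets. IFN-γ with LPS switches on some members of the first 2 of these classes in macrophages, and IL-4 drives the M2 state.

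Values are processed signals divided by the 75th percentile of the array, called relative signals here, and differences are log2 ratios of them. The error of a ratio is the signal error of the scanner software carried through, and it covers the array only, not the spread between cultures. A probe that the software did not call well above background had only a bound, and a ratio against it is written as "at least". With both arrays at background no ratio was taken. A gene was read by its brightest probe, and counted where it differed 2-fold or more, as measured or by bound.

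The arrays shared 1 slide and 1 scan, and 50.9 to 55.4% of the probes on each were well above background. The 75th percentile was 287 in M1 and 470.0 to 595 in the M2 arrays. The M1 array was thus scaled up against M2, and the median log2 ratio of all probes in M1 over M2 was 0.84 after this scaling and 0.01 after a shift to the array median. The shift between both scalings was −0.06 for Lamtor1-deficient over M2 and 0.25 for Torin1-treated over M2. The targeted gene, listed as 2400001E08Rik, had a relative signal of 66.3 in M2 and 1.55 in Lamtor1-deficient BMDMs, or 2.34% of M2. All 7 macrophage markers searched (Adgre1, Csf1r, Cd68, Itgam, Mertk, Cd14 and Lyz2) were well above background on all 4 arrays. In M1, Lamtor1-deficient and Torin1-treated BMDMs, 5, 5 and 6 of them were within 2-fold of M2. The other 2, 2 and 1 were lower, beside 17.2%, 6.17% and 9.62% of all named genes. The marker medians were −0.34, −0.44 and 0.12, against 0.75, 0.04 and −0.05 over all genes as measured. Adgre1 was lower on all 3 (−1.04, −2.57 and −2.81), whereas Cd68 (0.56, 0.55 and 0.70) and Mertk (0.42, 0.34 and 0.90) were above M2 but within 2-fold. The M2-state genes were not alike. Mrc1 was at −8.18, −1.42 and −2.64 in this order and Retnla was also lower on all 3 arrays, whereas Chi3l3 was lower in M1 (−12.25) and within 2-fold of M2 on the other two (0.22 each).

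Cxcl9 and Cxcl10 stood far above M2 only in M1 BMDMs, Cxcl1 stood above it in Lamtor1-deficient BMDMs, and Pf4 was below it on every other array. In the plot of relative signals, Cxcl11, Cxcl12, Cxcl14, Cxcl16 and Pf4 were well above background on all 4 arrays. Cxcl1, Cxcl9 and Cxcl10 were so on 3, Cxcl3 on 2, and Cxcl2 on M1 alone.

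**Figure D1:**
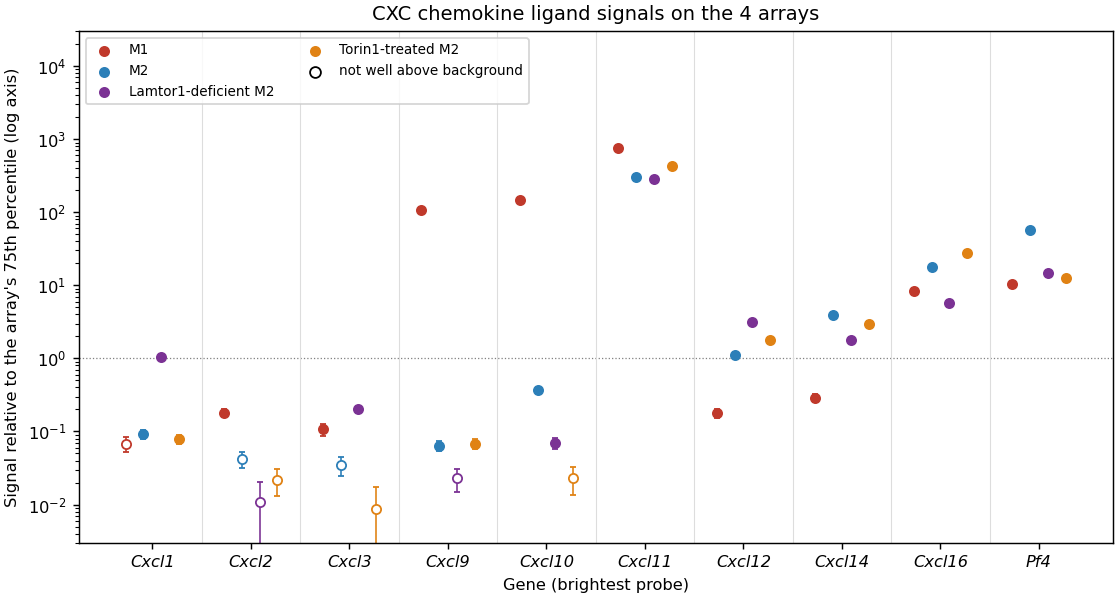
Relative signal of the brightest probe of each CXC ligand on the 4 arrays (log axis, 1 point per array, bars the software's signal error). Filled points are well above background and open points are not, and levels are to be compared within a gene. Cxcl9 and Cxcl10 reached 108 and 148 in M1 and were below 0.4 on the other arrays, whereas Cxcl1 reached 1.05 in Lamtor1-deficient BMDMs and was below 0.1 elsewhere.

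For M1 over M2, which asks how the ligands differ between both polarized states, 5 of the 10 genes were higher (Cxcl2, Cxcl3, Cxcl9, Cxcl10 and Cxcl11), 4 were lower (Cxcl12, Cxcl14, Cxcl16 and Pf4) and Cxcl1 had only a bound short of 2-fold. Over all named genes 19.3% were higher and 17.2% lower by the same rule. The median log2 ratio of the 10 members, as measured, was 0.44, against 0.75 over all genes. With bounds in place of signals at background it was 0.44 against 0.12, so whether the members lay below or above all genes depended on the dim probes. After a shift to the array median, or after quantile normalization, the split was 3 higher (Cxcl2, Cxcl9 and Cxcl10) and 5 lower, with Cxcl1 among the lower. With the median shift Cxcl9 and Cxcl10 were at 9.90 and 7.84, and the 4 lower members lay between −4.59 (Cxcl14) and −1.92 (Cxcl16).

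For Lamtor1-deficient over wild-type M2, which asks what the ligands do when Lamtor1 is missing under IL-4, 3 genes were higher (Cxcl1, Cxcl3 and Cxcl12) and 4 lower (Cxcl10, Cxcl14, Cxcl16 and Pf4). Cxcl11 was within 2-fold, Cxcl9 had only a bound short of 2-fold (lower), and Cxcl2 had no ratio. Over all named genes 6.23% were higher and 6.17% lower. The median log2 ratio of the 10 members, as measured, was −1.32, against 0.04 over all genes. With bounds in place of signals at background it was −0.78 over 9 members and 0.08 over all genes with a value.

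For Torin1-treated over M2, which asks the same of mTOR inhibition, 0 genes were higher and 2 lower (Cxcl10 and Pf4), and 6 were within 2-fold. Over all named genes 8.64% were higher and 9.62% lower, so the counts of members were near this background. The medians as measured were −0.32 over the members and −0.05 over all genes, and with bounds −0.07 over 8 members and 0.05 over all genes with a value. Torin1-treated was also set directly against Lamtor1-deficient BMDMs. There 1 gene was higher (Cxcl16) and 3 were lower (Cxcl1, Cxcl3 and Cxcl10), beside 7.52% and 9.5% of all named genes. The median of the members was 0.18 as measured and −0.23 with bounds, so it had no settled sign. The comparisons with M2 share that array, so its own error enters each of them.

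**Figure D2:**
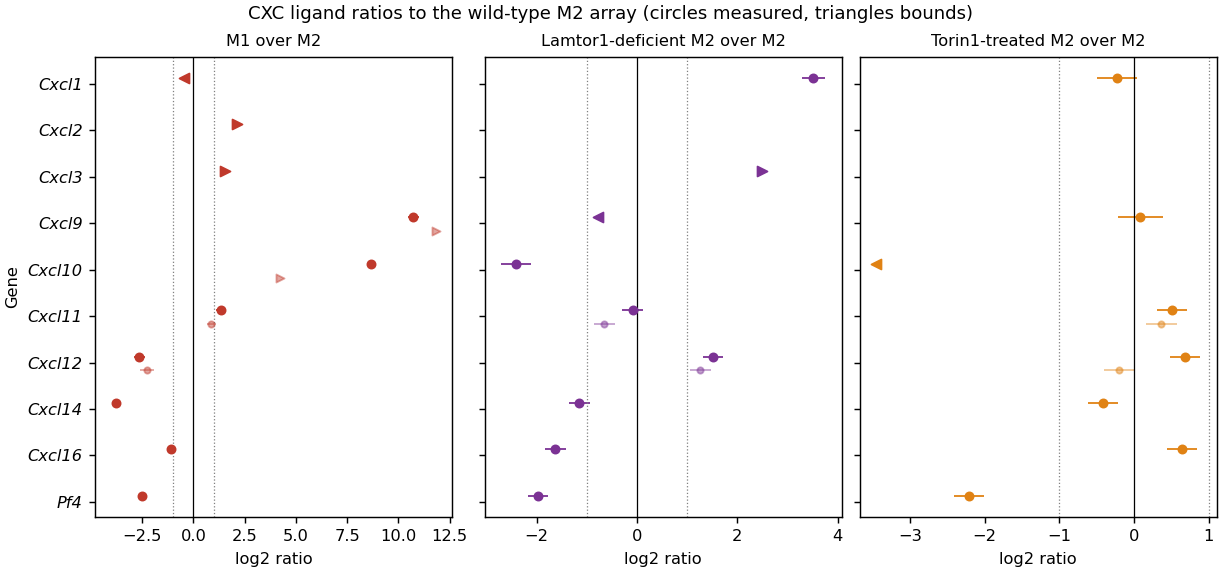
Log2 ratio of each CXC ligand to the wild-type M2 array in M1, Lamtor1-deficient and Torin1-treated BMDMs (each panel has its own scale). Circles with bars are measured ratios with the software's error, triangles are bounds pointing away from M2, pale symbols are the second probe of a gene, and dotted lines mark 2-fold. Cxcl1 lies at 3.52 in the middle panel and at −0.23 in the right panel, while Pf4 lies near −2 in both.

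The ELR ligands were read first. Cxcl1, Cxcl2, Cxcl3 and Pf4 lie together on chromosome 5, their probes spanning 132.3 kb from 91202275 to 91334593 of mm9, in the order Pf4, Cxcl3, Cxcl1 and Cxcl2. The promoter sequences of the 3 ELR genes are shown because these genes share a pair of closely spaced NF-κB-like motifs and differed between the arrays. They are RefSeq sequences of GRCm38.p6, 120 bases up to the transcription start, with matches to GGNNNTTCC on either strand in capitals.

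Cxcl1 (chr5:90891125-90891244, plus strand): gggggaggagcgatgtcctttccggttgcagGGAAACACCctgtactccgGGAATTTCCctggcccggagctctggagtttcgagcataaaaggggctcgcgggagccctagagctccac
Cxcl2 (chr5:90903779-90903898, plus strand): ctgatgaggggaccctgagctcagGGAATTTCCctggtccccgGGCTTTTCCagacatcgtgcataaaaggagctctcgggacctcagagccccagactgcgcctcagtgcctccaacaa
Cxcl3 (chr5:90785981-90786100, plus strand): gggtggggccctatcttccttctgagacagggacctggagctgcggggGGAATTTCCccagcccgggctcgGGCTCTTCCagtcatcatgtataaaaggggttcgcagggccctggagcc

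In Cxcl1 the matches began at −89 and −70 from the start, in Cxcl2 at −96 and −77, and in Cxcl3 at −72 and −49. The run GGAATTTCC, which reads as a match on both strands, occurred in all 3. This motif was in 5 of the 8 members with a promoter window (Cxcl1, Cxcl2, Cxcl3, Cxcl9 and Cxcl10) and in 18.5% of all 32851 windows of 300 bases. A match is only a description of these letters.

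Cxcl1 (KC), a major neutrophil attractant of the mouse, had a relative signal of 0.0674 in M1 (not well above background), 0.0918 in M2, 1.05 in Lamtor1-deficient BMDMs and 0.0784 with Torin1. The Lamtor1-deficient array was thus the high one, and M2 and Torin1-treated did not differ beyond their error, at a log2 ratio of −0.23 ± 0.27. Lamtor1-deficient BMDMs were 11.4-fold above M2 (log2 ratio 3.52 ± 0.24) and Torin1-treated were 13.4-fold below Lamtor1-deficient BMDMs (−3.75 ± 0.24). With normexp these ratios were 2.57 and −2.56. In M1 the signal was at least 1.36-fold lower than in M2, and this bound lay past 2-fold after a median shift (−1.27) and after quantile normalization (−1.31).

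Cxcl3, a close paralog of Cxcl1, had relative signals of 0.107 in M1, 0.035 in M2, 0.204 in Lamtor1-deficient BMDMs and 0.00874 with Torin1. Only M1 and Lamtor1-deficient arrays were well above background. Lamtor1-deficient BMDMs were at least 5.6-fold above M2 and at least 6.08-fold above Torin1-treated BMDMs, and M1 was at least 2.94-fold above M2. The log2 bound of M1 over M2 fell short of 2-fold after a median shift (0.74), quantile normalization (0.74) and normexp background correction (0.96), as did that of Torin1-treated over Lamtor1-deficient with normexp (−0.89). The bound of Lamtor1-deficient over M2 was 1.05 with normexp, just past 2-fold.

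Cxcl2 (MIP-2), which neutrophils also follow through Cxcr2, was well above background in M1 alone. Its relative signals were 0.18 in M1, 0.0419 in M2, 0.0109 in Lamtor1-deficient BMDMs and 0.0218 with Torin1. M1 was at least 4.31-fold above M2 (log2 bound 2.11), and no ratio was taken between the 3 arrays with IL-4. This bound was 1.29 after a median shift, 1.49 after quantile normalization and 1.26 with normexp. Cxcl1 and Cxcl2 thus had their highest signals on different arrays.

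Of the 5 other CXC ligands on the array, Cxcl5 and Ppbp were above background in the M2 arrays and Cxcl13, Cxcl15 and Cxcl17 were on none. Cxcl5, another ELR ligand, had processed signals of 336.1 in M2, 9353 in Lamtor1-deficient BMDMs and 306.1 with Torin1, and was not well above background in M1, where it was at least 8.62-fold below M2. Its log2 ratio was 4.95 for Lamtor1-deficient over M2 and 0.20 for Torin1-treated over M2, so that both Cxcl1 and Cxcl5 were high on the Lamtor1-deficient array and within 2-fold of M2 on the Torin1-treated array. Ppbp, an ELR ligand of platelets, was at least 4.21-fold below M2 in M1, lower in Lamtor1-deficient BMDMs (−1.31) and just within 2-fold in Torin1-treated BMDMs (−0.99).

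Neutrophils answer ELR ligands and also make some. Of 7 neutrophil markers 5 were on the array, and their summed relative signal was 4.36 in M1, 82.8 in M2, 6.12 in Lamtor1-deficient BMDMs and 5.81 with Torin1. In each of the 3 comparisons with M2, 4 of the 5 were lower (S100a8, S100a9, Mpo and Camp), beside 17.2% (M1), 6.17% (Lamtor1-deficient) and 9.62% (Torin1-treated) of all named genes. In Lamtor1-deficient over M2, S100a9 was at −4.74, Camp at −3.49, S100a8 at −2.21 and Mpo at −1.42. S100a9 gave 65.3 of the sum in M2, and the part of these markers in the ligand values was not tested. The fifth, Cxcr2, was well above background in Lamtor1-deficient BMDMs alone. Inflammatory genes of the M1 state moved in more than 1 direction in Lamtor1-deficient BMDMs, where Nos2 was higher (5.60), Il6 was at least 4.69-fold higher and Tnf was lower (−1.88). In Torin1-treated BMDMs, where Cxcl1 and Cxcl5 were within 2-fold of M2, Nos2 was also higher (5.42), Il6 had only a bound short of 2-fold (0.30) and Tnf was within 2-fold (−0.60).

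The interferon-inducible ligands lie in a second cluster on chromosome 5, their probes spanning 36.5 kb from 92752191 to 92788699 of mm9, in the order Cxcl9, Cxcl10 and Cxcl11. The promoters of Cxcl9 and Cxcl10 are shown because they hold both the NF-κB-like motif and GAAANNGAA, the core of the interferon-stimulated response element, and these genes had the highest ratios of all members in M1 over M2. The sequences are the 250 bases before the start, from the same source, with matches to either motif in capitals and no overlap between them.

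Cxcl9 (chr5:92328080-92328329, minus strand): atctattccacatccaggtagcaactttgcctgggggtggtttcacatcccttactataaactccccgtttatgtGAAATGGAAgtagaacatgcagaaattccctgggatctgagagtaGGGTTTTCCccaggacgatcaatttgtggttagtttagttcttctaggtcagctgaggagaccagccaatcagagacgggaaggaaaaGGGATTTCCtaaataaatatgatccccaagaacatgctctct
Cxcl10 (chr5:92348890-92349139, minus strand): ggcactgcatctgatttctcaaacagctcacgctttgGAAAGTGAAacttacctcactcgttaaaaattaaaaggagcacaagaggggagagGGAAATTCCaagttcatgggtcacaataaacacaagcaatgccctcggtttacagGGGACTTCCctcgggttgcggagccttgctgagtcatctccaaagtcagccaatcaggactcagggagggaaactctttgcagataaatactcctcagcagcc

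The response element core began at −175 in Cxcl9 and at −213 in Cxcl10, and the NF-κB-like matches began at −130 and −42 and at −158 and −103. The core was in 3 of the 8 members with a window, the third being Cxcl14 (at −172), and in 8.56% of all windows. No window was given for Cxcl11 and Cxcl16.

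Cxcl9 (MIG), the ligand most tied to IFN-γ, had relative signals of 108 in M1, 0.0642 in M2, 0.0228 in Lamtor1-deficient BMDMs (not well above background) and 0.068 with Torin1 by its brightest probe. M1 stood apart from the other 3 arrays. It was 1689-fold above M2 (10.72 ± 0.26), with a log2 ratio of 9.21 under normexp. M2 and Torin1-treated did not differ beyond their error (0.08 ± 0.30). With the mean of both probes, the second of which was at background on these arrays, Torin1-treated over M2 was −1.07, lower and past 2-fold. Lamtor1-deficient BMDMs were at least 1.71-fold below M2. The second probe was well above background in M1 alone, where its processed signal was 38670, and was at least 3632-fold above M2.

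Cxcl10 (IP-10), which type I interferon also induces, had relative signals of 148 in M1, 0.367 in M2, 0.0688 in Lamtor1-deficient BMDMs and 0.0232 with Torin1, the last not well above background. Besides its height in M1, at 405-fold over M2 (8.66 ± 0.21), it was graded among the arrays with IL-4. Lamtor1-deficient BMDMs were 5.33-fold below M2 (−2.42 ± 0.29), and Torin1-treated were at least 10.9-fold below M2 and at least 2.05-fold below Lamtor1-deficient BMDMs. With normexp Lamtor1-deficient over M2 was −1.25, and the log2 bounds of Torin1-treated were −1.39 against M2 and −0.13 against Lamtor1-deficient BMDMs. With the mean of both probes Lamtor1-deficient over M2 was −1.20, and the bound of Torin1-treated over M2 was −0.68, short of 2-fold. The bound of Torin1-treated over Lamtor1-deficient was also short of 2-fold (−0.89) when arrays were scaled on probes that all of them measured well above background. The second Cxcl10 probe, assigned to a separate transcript sequence, was well above background in M1 alone, at least 19-fold above M2.

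Cxcl11 (I-TAC) is the third ligand of Cxcr3, and C57BL/6 mice are known to carry a frameshift in it. In M1 over M2 its ratio was far below those of its cluster neighbours. The relative signals were 756 in M1, 300.9 in M2, 283 in Lamtor1-deficient BMDMs and 429 with Torin1 by its brightest probe. M1 was 2.52-fold above M2 (1.33 ± 0.20), and Lamtor1-deficient and M2 did not differ beyond their error by this probe (−0.09 ± 0.20). The second probe had relative signals of 12.5, 6.80, 4.34 and 8.79 in the same order, and its log2 ratio for M1 over M2 was 0.88, within 2-fold. For Lamtor1-deficient over M2 it was −0.65 ± 0.20, lower beyond its error, and for Torin1-treated over Lamtor1-deficient it was 1.02, past 2-fold, where the brightest probe was at 0.60. By the brightest probe the M1 ratio was 0.51 after a median shift and 0.53 after quantile normalization.

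Both Cxcl11 probes hold stretches that recur elsewhere on the array, which is why 30 bases of each are shown, as written in the probe and in lower case throughout because no part of them is singled out.

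A_55_P2160387, bases 14 to 43: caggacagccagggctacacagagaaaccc
A_55_P2044413, bases 16 to 45: cagcacttgaaaggcagaggcaggaggatc

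The brightest probe shared a run of at least 16 bases with 11 probes not assigned to Cxcl11 on the same strand (those of Elk1, F10, Kctd14, Med16 and Ndor1 among them) and with 55 of the 32851 promoter windows (0.167%). The second shared one with the probe of Rn4.5s, a small RNA related to the B1 repeats of the mouse genome, and with 10 windows. Of the other 12 member probes, 1 shared such a run with another gene's probe (the second Cxcl10 probe, with 1). The 11 probes had a median log2 ratio of 1.37 for M1 over M2, with a range of 1.05 to 1.89, of −0.13 for Lamtor1-deficient over M2 and of 0.50 for Torin1-treated over M2. The values of Cxcl11 were 1.33, −0.09 and 0.51. The Rn4.5s probe was at 1.52, −0.36 and 0.68. How much of the Cxcl11 signal came from such shared stretches was not tested, and without Cxcl11 the count of genes higher in M1 was 4.

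**Figure D3:**
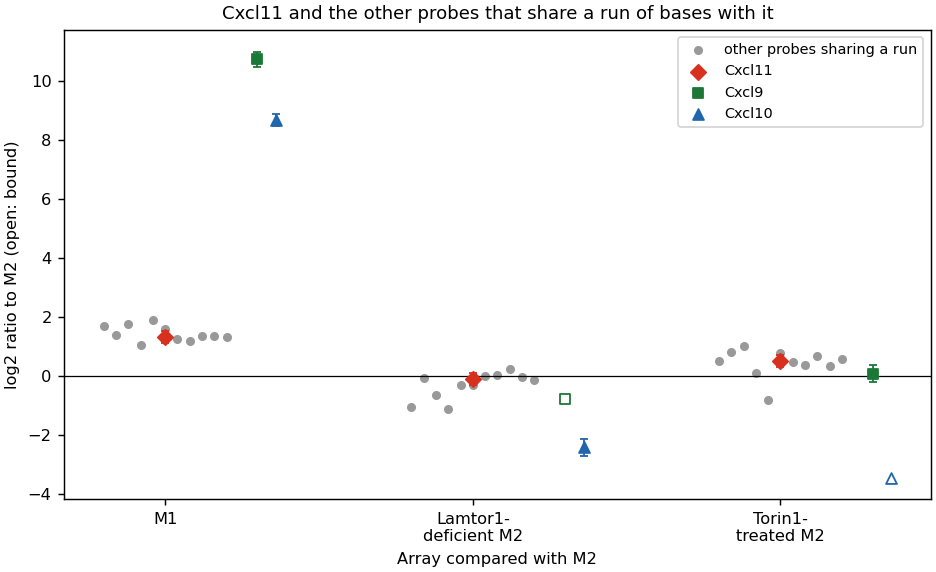
Log2 ratio to M2 of Cxcl11 (diamond), of the 11 probes not assigned to Cxcl11 that share a run of at least 16 bases with its brightest probe (grey points), and of its cluster neighbours Cxcl9 and Cxcl10, in M1, Lamtor1-deficient and Torin1-treated BMDMs. Bars are the software's error and open symbols are bounds. Cxcl11 lies within the grey points in every comparison, at 1.33 in M1, while Cxcl9 and Cxcl10 lie at 10.72 and 8.66 there.

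The genes upstream of these ligands were read from a list of 26 members of interferon and Toll-like receptor signalling. In M1 over M2, 9 were higher, 4 lower and 13 within 2-fold, with a median of 0.47 as measured. The share over all named genes was 19.3% higher and 17.2% lower, and their median was 0.75. Among them the interferon regulatory factors Irf7 (6.01) and Irf1 (3.74) and the signal transducer Stat2 (3.55) were higher, and Ifnb1, which encodes interferon-β, was well above background in M1 alone. The receptors Tlr4 (−2.86) and Ifngr1 (−1.38) and the kinase Jak2 (−1.24) were lower.

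Lamtor1-deficient BMDMs had 0 of the 26 higher and 2 lower, Irf7 at −2.42 and the LPS co-receptor Cd14 at −1.86, with 23 within 2-fold and a median of −0.26, a count lower near the 6.17% of all named genes. Torin1-treated BMDMs had 1 higher, Irf1 at 1.48, and 4 lower, Jak2 at −1.73, Tlr4 at −1.58, Nfkb1 at −1.08 and Ifngr1 at −1.01, with a median of 0.04, beside 8.64% higher and 9.62% lower of all named genes. Irf7 was at 0.80 in Torin1-treated over M2, and the part of these signalling genes in the ligand values was not tested. A list of 7 genes of ligand mRNA decay and shedding had 3 higher and 3 lower in M1, 0 higher and 2 lower in Lamtor1-deficient, and 1 higher and 1 lower in Torin1-treated over M2. The shares of all named genes were 19.3% higher and 17.2% lower, 6.23% and 6.17%, and 8.64% and 9.62% in the same order. In it, Zfp36, whose protein speeds decay of Cxcl1 mRNA, was at 3.45 in M1, −1.18 in Lamtor1-deficient and −0.0026 in Torin1-treated over M2. Its paralog Zfp36l1 was lower in all 3, at −1.76, −2.15 and −3.97.

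Cxcl12 (SDF-1; chromosome 6, 117131227 to 117131286 of mm9), the ligand of Cxcr4 that keeps haematopoietic cells in the marrow, had relative signals of 0.18 in M1, 1.11 in M2, 3.18 in Lamtor1-deficient BMDMs and 1.79 with Torin1. M1 was the low array, at 6.19-fold below M2 (−2.63 ± 0.25), and Lamtor1-deficient was the high one, at 2.86-fold above M2 (1.51 ± 0.20). The second probe, on a separate accession, gave −2.26 ± 0.32 and 1.26 ± 0.21. By the brightest probe, M1 over M2 was −1.57 with normexp and −3.45 after a median shift. For Torin1-treated over M2 the probes disagreed in sign, at 0.69 ± 0.20 and −0.19 ± 0.21, and both were within 2-fold. For Torin1-treated over Lamtor1-deficient they were −0.83 ± 0.20 and −1.46 ± 0.21, so the second probe was past 2-fold and the brightest was not.

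Cxcl14 (chromosome 13, 56390078 to 56390137), a ligand of epithelium and stroma, was highest in M2. Its relative signals were 0.29 in M1, 3.95 in M2, 1.78 in Lamtor1-deficient BMDMs and 2.97 with Torin1. M1 was 13.6-fold below M2 (−3.77 ± 0.22), which was the largest ratio among the 4 members lower in M1, and Lamtor1-deficient was 2.22-fold below it (−1.15 ± 0.20). Torin1-treated was within 2-fold (−0.41 ± 0.20).

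Fibroblasts make both Cxcl12 and Cxcl14, and in bulk RNA fewer cells of a type and less RNA per cell cannot be told apart. The 7 fibroblast markers had summed relative signals of 16.1 in M1, 43.5 in M2, 56.2 in Lamtor1-deficient BMDMs and 15.5 with Torin1. In M1 over M2, where both ligands were lowest, 4 were lower, Col1a1 (−3.81), Col1a2 (−2.40), Col3a1 (−3.35) and Pdgfra (at least 3.76-fold), and Dcn was higher (2.55), beside 17.2% of all named genes lower and 19.3% higher. In Lamtor1-deficient over M2, 2 were higher, Dcn (1.91) and Pdgfra (1.45), and 0 were lower, beside 6.23% and 6.17%. In Torin1-treated over M2, 3 collagens were lower, Col1a1 (−1.86), Col1a2 (−1.44) and Col3a1 (−2.89), while the Cxcl12 ratios were within 2-fold, and 9.62% of all named genes were lower. Col1a2 gave 30.9 of the sum in M2 and 36.3 in Lamtor1-deficient BMDMs, and was within 2-fold there (0.23). Fibroblasts also make Cxcl1 and Cxcl5, which were high on the Lamtor1-deficient array. The part of these markers in the ligand signals was not tested.

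Cxcl16 (chromosome 11, 70267780 to 70267839), a transmembrane ligand that also takes up oxidized lipoprotein and is released by the protease Adam10, had relative signals of 8.23 in M1, 17.6 in M2, 5.70 in Lamtor1-deficient BMDMs and 27.5 with Torin1. It was the 1 member past 2-fold higher in Torin1-treated than in Lamtor1-deficient BMDMs. Lamtor1-deficient BMDMs were 3.09-fold below M2 (−1.63 ± 0.20), Torin1-treated were above M2 but within 2-fold (0.65 ± 0.20), and Torin1-treated were 4.83-fold above Lamtor1-deficient BMDMs (2.27 ± 0.20). M1 was 2.14-fold below M2 (−1.10 ± 0.20). Adam10 was at −1.73 in M1, −0.08 in Lamtor1-deficient and −0.49 in Torin1-treated over M2. The related protease Adam17 was at 1.27, −0.04 and 1.53 in the same order.

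Pf4, platelet factor 4, is stored by platelets and also expressed by macrophages. Its relative signals were 10.3 in M1, 57.6 in M2, 14.6 in Lamtor1-deficient BMDMs and 12.5 with Torin1, so M2 stood above the other 3 arrays. M1 was 5.61-fold (−2.49 ± 0.20), Lamtor1-deficient 3.93-fold (−1.98 ± 0.20) and Torin1-treated 4.62-fold (−2.21 ± 0.20) below M2. Both M2 manipulations differed from each other by little more than their error (−0.23 ± 0.20). Pf4 was the 1 member past 2-fold in the same direction in all 3 comparisons with M2.

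Of 7 megakaryocyte and platelet markers, 3 to 5 were well above background on each array, and their summed relative signal was 1.55 in M1, 0.718 in M2, 0.519 in Lamtor1-deficient BMDMs and 0.542 with Torin1. Gp1ba, which defines platelets, was on no array well above background, and Gp9 was so only on the Torin1-treated array. In M1 over M2, 3 markers were higher and 1 lower, beside 19.3% and 17.2% of all named genes. Gp6, well above background in M1 alone, gave 0.939 of the M1 sum, whereas Ppbp was the marker lower in M1. Among the arrays with IL-4 the sum was highest in M2. The neutrophil sum given above was also highest in M2, and the part of either marker list in the Pf4 values was not tested. In Lamtor1-deficient over M2, 1 of the 7 was lower (Ppbp) and 0 were higher, beside 6.17% and 6.23% of all named genes. In Torin1-treated over M2, where Pf4 was lower, 0 of the 7 were past 2-fold in either direction, beside 8.64% higher and 9.62% lower, and their median as measured was 0.03. The 5 lymphocyte markers had summed relative signals of 7.44 to 15.1 over the arrays, with 1 lower in Lamtor1-deficient and in Torin1-treated over M2 (Cd79a, at −1.84 and −1.61), beside 6.17% and 9.62% of all named genes.

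On the receptor side, 8 CXC receptors were searched. In Lamtor1-deficient over M2, 4 were higher and 0 lower, and in Torin1-treated over M2, 3 were higher and 0 lower, with medians of 1.18 and 0.97 as measured. Over all named genes 6.23% and 8.64% were higher in these comparisons. In M1 over M2, 2 were higher and 1 lower, beside 19.3% and 17.2% of all named genes. Cxcr1, a receptor of ELR ligands, had processed signals of 54.06 in M1, 2005 in Lamtor1-deficient BMDMs and 333.5 with Torin1 and was not well above background in M2, so that the bounds on its log2 ratio were 2.37, 6.68 and 4.29. Cxcr4, the receptor of Cxcl12, was at −0.08, 1.02 and 1.67 in the same order, and Cxcr6, the receptor of Cxcl16, at 1.25, 1.44 and 1.09. Ackr3, a scavenger of Cxcl11 and Cxcl12, was above background in Lamtor1-deficient BMDMs alone. Cxcr3, the receptor of Cxcl9 and Cxcl10, was within 2-fold of M2 in Lamtor1-deficient (0.47) and Torin1-treated BMDMs (0.87), and at least 2.14-fold below M2 in M1, where these ligands were highest.

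**Figure D4:**
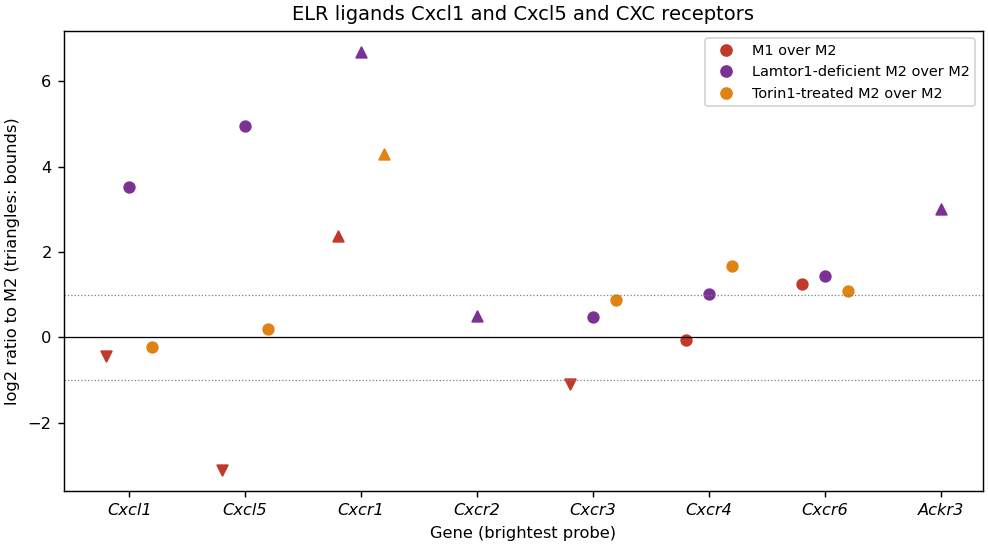
Log2 ratio to M2 of the ELR ligands Cxcl1 and Cxcl5 and of 6 CXC receptors in M1, Lamtor1-deficient and Torin1-treated BMDMs. Circles are measured ratios, triangles are bounds pointing away from 0, and dotted lines mark 2-fold. Cxcl1 and Cxcl5 lie at 3.52 and 4.95 in Lamtor1-deficient BMDMs and at −0.23 and 0.20 in Torin1-treated BMDMs, and Cxcr1 lies above the upper line on all 3 arrays compared.

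For the 5 members well above background on all 4 arrays, the genes with the most similar profile were taken from 12997 genes by the distance between their centred log2 signals over the 4 arrays. Nearest to Pf4 were Arhgef10l (0.189), S100a8 (0.189) and Slc4a11 (0.237), and S100a8 is one of the neutrophil markers described above. Nearest to Cxcl16 were Nxph3 (0.158), Cyp2j9 (0.167) and Fabp2 (0.297). Nearest to Cxcl12 were Apba1 (0.159), As3mt (0.239) and Mtfp1 (0.253), and nearest to Cxcl14 were Prkd3 (0.404), Cpt1a (0.442) and Acads (0.454), which lay farther away. Cxcl11 had the closest neighbours of all, Ambra1 (0.00779), Tdp2 (0.0616) and Klhl35 (0.0705), whose probes were not among the 11 above. With 4 arrays such a likeness describes these arrays and no more.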

How the data were processed

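RNA of 4 BMDM cultures was hybridized in 1 colour (Cy3) to Agilent SurePrint G3 Mouse GE arrays. The authors deposited scanner files whose processed signal is an intensity, with background subtracted and spatial trends removed by Feature Extraction, without normalization between arrays; per the file headers the version was 10.7.3.1, whereas the submitters' processing notes give 10.5.1.1. A deposited table of the series held the same intensities, within 0.497%. As in the study's methods, signals under 1.0 were set to 1.0 and each array was shifted to its 75th percentile on the log2 scale, computed here from the deposited intensities. Control spots and 170 to 226 outlier spots per array were left out, and spots of 1 probe were averaged. No spot was saturated. For a probe well above background on only 1 array, the bound used the higher of the lowest signal well above background on the dim array (15.7 to 21.6) and the dim probe's own signal. Repeated spots (at least 8 per probe) had an SD of 0.06 to 0.08 (log2) where well above background and of 0.18 to 0.39 where not.

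The 10 members and the gene lists were chosen with earlier results of these data known. All members are named; of the other lists, genes past 2-fold in at least 2 of the 3 comparisons with M2 are named, with others added after their values were seen. Some items of these lists are not reported here. The 3 nearest profiles were taken for each member well above background on all arrays. Probe coordinates are the array annotation's, on mm9. Promoters come from RefSeq (GRCm38.p6; 10 of 10 symbols matched, 8 with a window) and were searched on both strands. Alternatives were a median shift, quantile normalization, the 75th percentile taken over only those probes that all arrays measured well above background, normexp (offset 50), outlier spots kept, the mean or the dimmest probe of a gene, ratios with no bound, probes well above background on both arrays, a 3-fold threshold and the series table; leaving out Cxcl11 was added after the data had been seen. On data simulated from the M2 array, the only noise was the spread of repeated spots, and genes far above background were changed 4-fold. There 200 of 200 were recovered and 0 unchanged genes were called. This outcome was set by the design, so it checks the calling steps only. It gives no rate of false calls between cultures or for dim members. Python 3.11.15 (pandas 2.3.3, NumPy 2.4.6, matplotlib 3.10.9) and R 4.3.3 (limma 3.58.1) were used.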

Additional observations from a re-analysis of the deposited data

How the results depend on the processing

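With 1 array per condition, what limits every value is the missing replicate, and for dim members the signal over background. Of 348 values recomputed under the alternatives, 80 were a bound in either setting and have no error of their own, and none of these changed sign. Of the 268 measured in both settings, 218 moved by less than the error of the ratio and 50 by more; the sign changed for 6, all of them ratios within 2-fold as reported, and the median shift gave 18 of the 50 moves, quantile normalization 9, the mean of a gene's probes 9, and normexp and the dimmest probe 7 each. The number of genes higher in M1 than in M2 was 5, and 3 with the median shift, 3 with quantile normalization, 3 with a 3-fold threshold and 3 with probes well above background on both arrays. The number lower in Torin1-treated than in M2 was 2, and 1 with probes well above background on both arrays. The number higher in Torin1-treated than in Lamtor1-deficient BMDMs was 1, and 2 with the 75th percentile taken over only those probes that all arrays measured well above background (Cxcl9 and Cxcl16), 2 with the dimmest probe of a gene (Cxcl11 and Cxcl16) and 3 with ratios as measured (Cxcl2, Cxcl9 and Cxcl16). The number lower there was 3, and 1 with normexp and 1 with probes well above background on both arrays (Cxcl1 each time). The causes were not tested, beyond the fewer genes that the last of these alternatives can count. The counts of genes higher and lower in Lamtor1-deficient than in M2 BMDMs stayed within 1.5 times under the alternatives run. No paired analysis was possible because each condition had 1 array and no test was made.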
